A study of Sus scrofa with 41 samples.

Results

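Skeletal muscle breaks down much of its protein through the ubiquitin-proteasome system, in which an E3 ligase chooses the protein that is tagged with ubiquitin. TRIM63 (MuRF1) and FBXO32 (atrogin-1) are the ligases best known for rising in wasting muscle, and the transcription factors FOXO1 and FOXO3 can switch both genes on when insulin and IGF signalling through AKT is low. FBXO30 (MUSA1) and FBXO40 are further muscle F-box proteins, the substrate-binding part of SCF ligases, and FBXO40 is known for tagging the insulin receptor substrate IRS1. These 6 genes were chosen by their pig symbols for their role in muscle protein breakdown, out of 25880 genes in the count tables, and each was found once.

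The libraries were polyA RNA from the psoas major muscle of 41 uncastrated male pigs, 13 Danbred Duroc and 28 Danbred Landrace, fed ad libitum and slaughtered at a set weight. Feed conversion ratio (FCR), which is read here from the size of its values as feed eaten per weight gained, although the methods of the study word it as gain divided by feed, ranged from 1.83 to 2.18 in Duroc and from 1.92 to 2.25 in Landrace. Age at sampling was 131 to 156 days in Duroc and 147 to 166 days in Landrace, and the RNA integrity number (RIN) ranged from 7 to 8.8 and from 6.5 to 8.3. The pigs came from 5 slaughter batches, of which batch 1 held 1 Duroc pig and no Landrace pig. Pigs are named by breed and a number that carries no order. Each library held 22188911 to 25954816 read pairs on single genes, and the scaling factors of the libraries (TMM) ranged from 0.650 to 1.24. Of 8 skeletal muscle markers, the 4 that were matched by symbol (ACTA1, CKM, DES and TNNT3) summed to 110682 to 204338 CPM (counts scaled to a common library size with TMM) in a pig, against 7.12 to 60.2 CPM for 5 leukocyte markers and 27.2 to 145 CPM for 3 endothelial markers. The sums were higher for 4 fibroblast markers, at 482 to 10242 CPM, and for 2 genes of a cardiac list, at 704 to 7671 CPM. They were 9.88 to 144 CPM for 5 adipocyte markers and 10.0 to 185 CPM for 2 smooth muscle markers. The samples are bulk tissue, so fewer cells of a type and less RNA per cell cannot be told apart.

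FOXO1 lies at chr11:15317222-15410059 and FOXO3 at chr1:74626673-74760323 of Sscrofa11.1 (RefSeq positions). FOXO1 was measured at 19.5 CPM in the lowest Duroc pig, with a median of 36.4 and a highest value of 48.3 CPM. In Landrace the lowest, median and highest FOXO1 values were 20.1, 38.4 and 58.3 CPM. The breeds overlapped, and the highest values were those of Landrace pigs. FOXO3 ran from 49.0 through a median of 80.0 to 152 CPM in Duroc and from 53.3 through 82.5 to 165 CPM in Landrace. FOXO3 spanned 3.11-fold from the lowest to the highest pig in each breed, and the breeds overlapped here too.

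TRIM63 lies at chr6:83493200-83507471 and FBXO32 at chr4:15895875-15925929. TRIM63 had a lowest, median and highest value of 116, 329 and 499 CPM in Duroc and of 147, 363 and 1048 CPM in Landrace. FBXO32 had 66.5, 170 and 304 CPM in Duroc and 40.1, 224 and 655 CPM in Landrace, a 16.3-fold range in the latter breed. The same pig, Landrace 19, was highest for both ligases, and Duroc 6 was the lowest Duroc pig for both. These were the most variable genes of the 6. Over all 41 pigs the coefficient of variation was 57.3% for FBXO32 and 45.4% for TRIM63, and 95.4% and 89.2% of the 11146 genes tested had a lower one, where the median gene had 24.3%.

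FBXO30 lies at chr1:19756232-19777621 and was the steadiest of the 6, with a coefficient of variation of 12.9% that only 7.78% of genes were below. It ran from 62.0 through a median of 81.9 to 92.9 CPM in Duroc and from 68.7 through 82.0 to 107 CPM in Landrace. FBXO40 lies at chr13:138881528-138905410 and ran from 36.1 through 133 to 172 CPM in Duroc and from 41.9 through 191 to 224 CPM in Landrace. Its low end was set by a few pigs, namely Duroc 10 at 36.1 CPM, Landrace 27 at 41.9 CPM and Landrace 1 at 85.9 CPM, which were also the 3 pigs with the lowest RIN (7, 6.6 and 6.5). FOXO1 and FOXO3 had coefficients of variation of 25.4% and 32.9%, and FBXO40 of 28.5%.

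**Figure D1:**
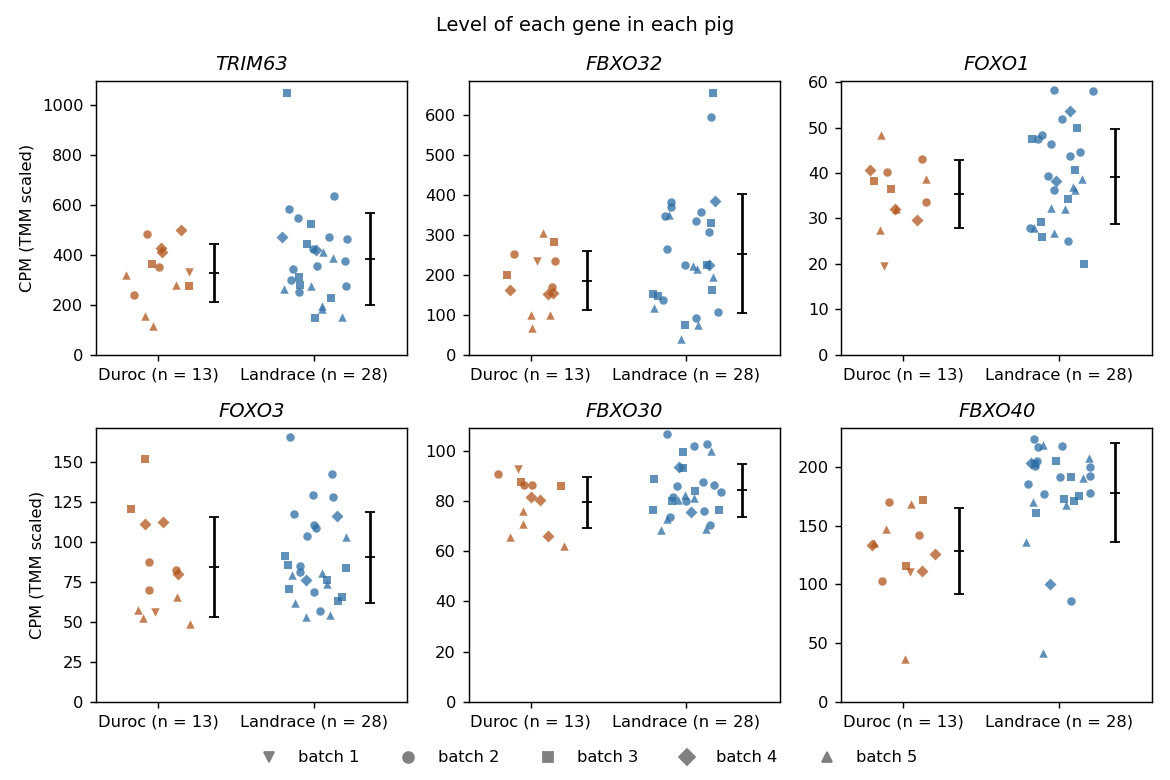
Level of each gene in each pig, in CPM with TMM scaling (y axis, from 0), for 13 Duroc and 28 Landrace pigs; marker shapes are slaughter batches and the black bars are the mean and SD. The breeds overlap in every panel, Landrace 19 stands highest in TRIM63 at 1048 CPM and in FBXO32 at 655 CPM, and the median of FBXO40 is 133 CPM in Duroc and 191 CPM in Landrace.

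The deposited count of FBXO40 needs a limit beside it. Read pairs that fall on overlapping genes were not assigned to either gene in the unstranded counts, and FBXO40 overlaps the neighbouring gene HCLS1 (chr13:138852387-138883088) by 1561 bases in RefSeq. The unstranded counts held 172626 pairs on FBXO40 over all pigs, whereas the counts made separately for each strand summed to 540250, which is 313% of the former. For the other 5 genes the sum came to 100%. The share was 258% in the lowest pig, and 1445% in Duroc 10, 1310% in Landrace 27 and 574% in Landrace 1, so it was highest in the 3 pigs with the least intact RNA. Of all genes tested, 3.75% had a ratio at least as high as FBXO40. The libraries carry no strand, so a pair over the shared bases is counted for both genes in the strand sums and cannot be given to one of them. HCLS1, a gene of blood cells, had 4388 pairs in the unstranded counts and 372011 in the strand sums. By the strand sums FBXO40 ran from 301 through a median of 421 to 522 CPM in Duroc, where Duroc 10 was the highest and no longer the lowest pig, and from 407 through 570 to 749 CPM in Landrace.

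The first comparison asked whether the genes follow feed conversion in both breeds at once, with RIN, age, breed and batch in the model. None of the 6 genes passed the threshold of this report, a false discovery rate (FDR) under 0.1 over all genes tested (edgeR quasi-likelihood test), and neither did any other gene, so that the share of genes called was 0%. TRIM63 fell by 0.23 ± 0.10 (SE) on the log2 scale for each 0.1 of FCR, with an unadjusted p of 0.028 in the edgeR fit and an FDR of 0.55. It was the only one of the 6 with an unadjusted p under 0.05, which 968 genes or 8.68% of all had, and neither DESeq2 nor limma called any of the 6. FBXO32 had a slope of -0.11 ± 0.15, FOXO1 of -0.033 ± 0.062, FOXO3 of 0.062 ± 0.065, FBXO30 of -0.026 ± 0.034 and FBXO40 of 0.0076 ± 0.067 log2 units per 0.1 FCR.

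Within Duroc, TRIM63 was lower in pigs with a higher FCR. The values in CPM, from the lowest to the highest FCR, were 280, 318, 427, 329, 481, 499, 364, 350, 409, 276, 240, 154 and 116. The 3 pigs with an FCR above 2 were the 3 lowest, with 240 CPM in Duroc 3 at an FCR of 2.08, 154 CPM in Duroc 5 at 2.11 and 116 CPM in Duroc 6 at 2.18. Below an FCR of 2 the values show no steady course, and the pair with the lowest FCR, Duroc 11 and Duroc 10, stood in the lower part of this range. In the model with RIN, age and batch TRIM63 fell by 0.35 ± 0.073 (SE) on the log2 scale per 0.1 FCR, with an FDR of 0.0150 in DESeq2. It was the only one of the 6 called, where 0.0886% of genes were called in all and 0.0354% were called lower. The fit had 13 pigs and 5 residual degrees of freedom.

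The Duroc call rested on single pigs and on the tool. Without Duroc 6 the slope of TRIM63 was -0.29 ± 0.12 and the DESeq2 FDR rose to 1, and without Duroc 11 the slope was -0.45 ± 0.13 with an FDR of 0.13. It kept an FDR under 0.1 when any one of 10 other pigs was left out. Duroc 2 is the only pig of batch 1, so the batch term takes up its value and leaving it out is no check. The edgeR fit gave nearly the same slope, -0.34 ± 0.061, with an unadjusted p of 0.00037 and an FDR of 0.79. Without covariates Pearson's r between the log2 CPM of TRIM63 and FCR was -0.762 (permutation p = 0.00361, adjusted p = 0.0433 over 12 correlations), and Spearman's rho was -0.517 (permutation p = 0.0735, adjusted p = 0.464). When the pair of pigs farthest from the median FCR was left out, r came to -0.274, so the relation rests on those pigs. No slaughter batch held as many as 6 Duroc pigs, which left no correlation within a batch. Of the 4 Duroc pigs of batch 5, TRIM63 was at 280 and 318 CPM in the pigs with an FCR of 1.83 and 1.85 and at 154 and 116 CPM in those with 2.11 and 2.18, at nearly the same age (154 and 156 days). Cell type markers were fitted in Duroc as well. All 5 leukocyte markers had a positive slope on FCR, 2 with an unadjusted p under 0.05 in DESeq2, and summed to 9.42 to 44.2 CPM. Only LCP1 was called (log2 slope of 0.49 ± 0.12 per 0.1 FCR, FDR of 0.083). All 4 fibroblast, 3 endothelial, 2 smooth muscle and 2 adipocyte markers also had positive slopes. All 4 skeletal muscle and 2 cardiac markers had negative ones. In Landrace all 5 leukocyte markers had a negative slope, 3 with an unadjusted p under 0.05 in DESeq2, and none was called. The part of these markers in the TRIM63 slope was not tested.

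FBXO32 did not pass in Duroc. Its DESeq2 slope was -0.22 ± 0.12 per 0.1 FCR with an FDR of 1.00, and leaving out Duroc 6 turned it to 0.086. Its lowest values, 66.5, 98.6 and 99.1 CPM, came from Duroc 6, Duroc 11 and Duroc 5, which lie at both ends of the FCR range and all belong to batch 5. The other slopes in Duroc were -0.088 ± 0.093 for FOXO1, -0.053 ± 0.079 for FOXO3, -0.066 ± 0.070 for FBXO30 and 0.066 ± 0.13 for FBXO40.

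In Landrace none of the 6 was called, where DESeq2 called 0.0368% of all genes. The slope of TRIM63 was -0.13 ± 0.18 per 0.1 FCR and its r with FCR was -0.145 over 28 pigs (permutation p = 0.464, adjusted p = 0.782). FBXO32 had a slope of -0.027 ± 0.22, FOXO1 of 0.010 ± 0.087, FOXO3 of 0.084 ± 0.087, FBXO30 of -0.012 ± 0.050 and FBXO40 of -0.077 ± 0.084. No member had an unadjusted p under 0.05 in DESeq2 or in edgeR, and 5.90% of all genes did in DESeq2. The difference of the slopes between the breeds was tested directly with an interaction term. It was called for none of the 6 and for 0% of genes (edgeR), and 5.22% of genes and none of the 6 had an unadjusted p under 0.05. For TRIM63 the Landrace slope was higher than the Duroc slope by 0.21 ± 0.20 per 0.1 FCR, with an unadjusted p of 0.30 and an FDR of 0.94 in edgeR, so the call in Duroc does not show that the breeds differ.

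**Figure D2:**
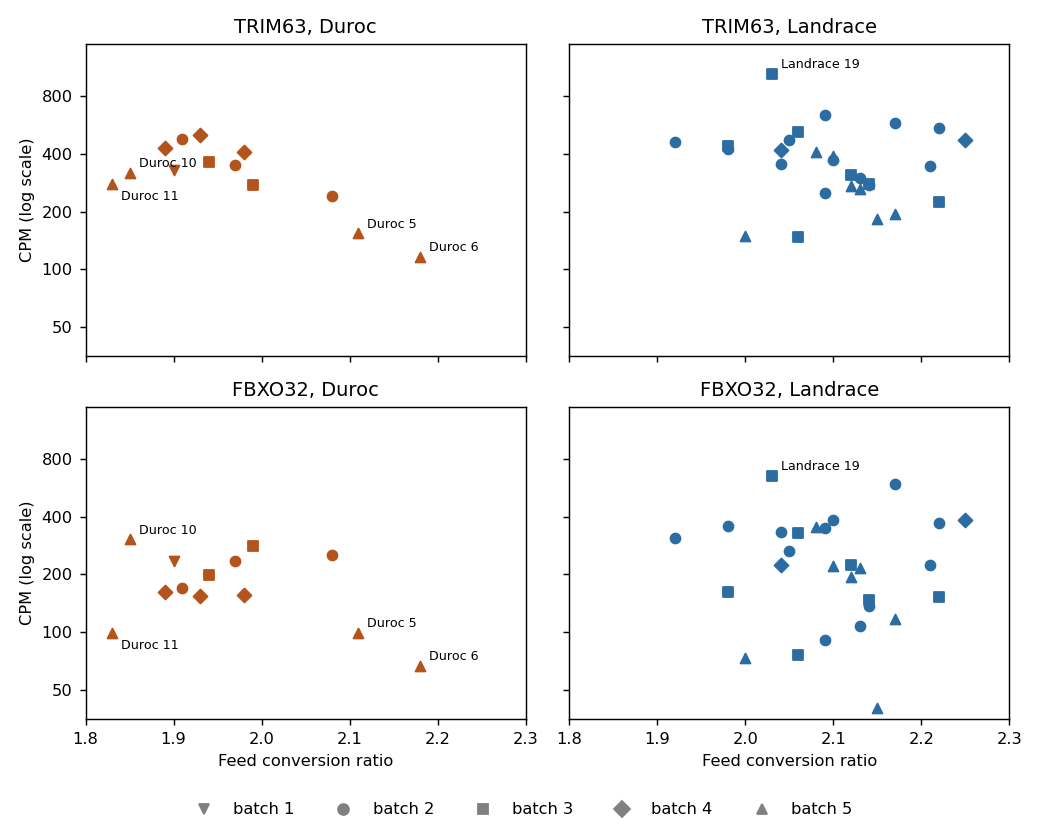
TRIM63 (top) and FBXO32 (bottom) in CPM on a log scale against feed conversion ratio, for Duroc (left) and Landrace (right); each point is a pig and its shape the slaughter batch. In Duroc the 3 pigs with an FCR above 2 have the lowest TRIM63, down to 116 CPM in Duroc 6, while the Landrace points show r = -0.145.

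The next comparison was between the breeds. With FCR, RIN, age and batch in the model, 4 of the 6 were called higher in Landrace and none lower, where edgeR called 33.1% of all genes and 15.6% as higher. FBXO40 was 1.53-fold higher (95% interval 1.20 to 1.95, FDR of 0.011 in edgeR). TRIM63 was 1.61-fold higher (1.10 to 2.35, FDR of 0.069), FOXO3 1.35-fold (1.06 to 1.73, FDR of 0.070) and FBXO30 1.15-fold (1.02 to 1.30, FDR of 0.097). FBXO32 and FOXO1 were not called, with edgeR estimates of 1.47-fold (0.832 to 2.60, FDR of 0.35) and 1.16-fold (0.919 to 1.45, FDR of 0.39). The median log2 difference of the 6 genes was 0.50, against -0.0024 for all genes tested.

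Apart from FBXO40 these calls lay near the threshold. Without Duroc 6 the edgeR FDR of TRIM63 was 0.16, of FOXO3 0.16 and of FBXO30 0.21, which left FBXO40 as the only call, and without Landrace 19 the calls of TRIM63 and FBXO30 were lost (FDR of 0.10 and 0.12) while FOXO3 and FBXO40 were called. With age left out of the model FOXO3 and FBXO30 lost their calls, FOXO3 with an estimate of 0.14 ± 0.17 log2 units, and with limma TRIM63 and FBXO30 did (FDR of 0.12 and 0.11). FBXO30 also lost its call with no filter on low counts, with batch as a number and without pigs of RIN below 7 (edgeR FDR of 0.13, 0.11 and 0.11). Scaling by the total count instead of TMM moved the median of all genes by -0.18 log2 units for breed, and none of the 6 was then called. Measured from the median of all genes, the estimates were nearly the same under both scalings, 0.69 and 0.68 log2 units for TRIM63, 0.44 and 0.44 for FOXO3, 0.20 and 0.20 for FBXO30 and 0.61 and 0.60 for FBXO40. A change of scaling shifts all genes of a library alike, so this near equality follows from the method. It does not tell which scaling is right. Within single batches, in plain group means, FBXO40 was higher in Landrace in all 4 batches that held both breeds, by 0.45, 0.37, 0.21 and 0.48 log2 units in batches 2 to 5. TRIM63 was higher by 0.22, 0.16, 0.0034 and 0.32, whereas FOXO3 differed by 0.38, -0.84, -0.089 and 0.34, so its sign was not the same in each batch. FBXO30 differed by -0.035, -0.028, 0.15 and 0.20, against its fitted direction in 2 of the 4 batches. These means rest on few pigs, with 3, 2, 3 and 4 Duroc and 12, 7, 2 and 7 Landrace pigs in batches 2 to 5. The breeds overlapped in each of these batches for TRIM63, FBXO30 and FBXO40, and in all but batch 3 for FOXO3. By the strand sums the breed difference of FBXO40 was 0.51 ± 0.099 log2 units with an FDR of 0.00032 in edgeR. Cell type markers moved with breed too. All 3 endothelial markers and both smooth muscle markers were called lower in Landrace. So were 1 of 2 adipocyte markers (ADIPOQ, -2.67 log2 units), 1 of 4 fibroblast markers (PDGFRA, -1.22) and 1 of 2 genes of the cardiac list (MYH6, -0.75). MYH6 averaged 3232 CPM in Duroc and 2490 CPM in Landrace, against 2.04 and 2.46 CPM for TNNT2, the other cardiac gene. It is therefore not read as a sign of heart cells. Of 4 skeletal muscle markers 3 were called higher, and none of 5 leukocyte markers was called. The part of these markers in the breed differences was not tested.

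RNA integrity was associated with 2 of the 6 genes, where edgeR called 51.8% of all genes and 23.9% as rising with RIN. FBXO40 rose by 0.84 ± 0.15 (SE) log2 units per RIN unit (FDR of 3.04e-05) and FOXO3 by 0.41 ± 0.14 (FDR of 0.015). The slopes of TRIM63 (-0.16 ± 0.19), FBXO32 (-0.20 ± 0.29), FOXO1 (-0.15 ± 0.12) and FBXO30 (0.090 ± 0.067) did not pass. The FBXO40 slope differed between the ways of counting described above, and the cause of that was not tested. By the strand sums it was 0.12 ± 0.077 with an edgeR FDR of 0.19, while FOXO3 kept its call (0.48 ± 0.14, FDR of 0.0037) and FBXO30 gained one (0.16 ± 0.067, FDR of 0.042). Under total count scaling the median of all genes moved by 0.31 per RIN unit. The slopes of TRIM63, FBXO32 and FOXO1 then turned positive. Measured from that median they were -0.15, -0.17 and -0.13, near those under TMM, which again follows from the method. Of the markers of cell types, 2 of 4 for fibroblasts were called rising with RIN, 2 of 4 for skeletal muscle and 1 of 5 for leukocytes were called falling, and none was called for adipocytes, endothelium, smooth or cardiac muscle. Their part in the RIN slopes was not tested.

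The RIN slopes were also taken in each breed alone. In Landrace, where DESeq2 called 43.7% of genes, FOXO3 (0.42 ± 0.15, FDR of 0.017) and FBXO40 (0.76 ± 0.14, FDR of 1.79e-06) were called. In Duroc, where it called 3.21%, only FBXO40 was (1.31 ± 0.42, FDR of 0.060). FBXO32 lay just past the threshold (-1.02, DESeq2 FDR of 0.11), and it was called, falling, in 6 of the 13 fits that left out 1 pig, those without Duroc 5, 6, 7, 9, 12 or 13 (lowest FDR of 0.00152 without Duroc 6). Its slope was 0.22 without Duroc 10 and -0.33 without Duroc 11, with an FDR of 1.00 in both. The call of FBXO40 rested on Duroc 10, without which the slope was -0.41 ± 0.44, and on Duroc 11, without which it was 0.26 ± 0.48, with an FDR of 1.00 in both cases, and edgeR did not call it (FDR of 0.25). Within batches the plain slope of FOXO3 on RIN was 0.53, 0.80 and 0.088 log2 units in batches 2, 3 and 5, and that of FBXO40 was 0.64, -0.22 and 1.12, so FBXO40 did not keep its sign.

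**Figure D3:**
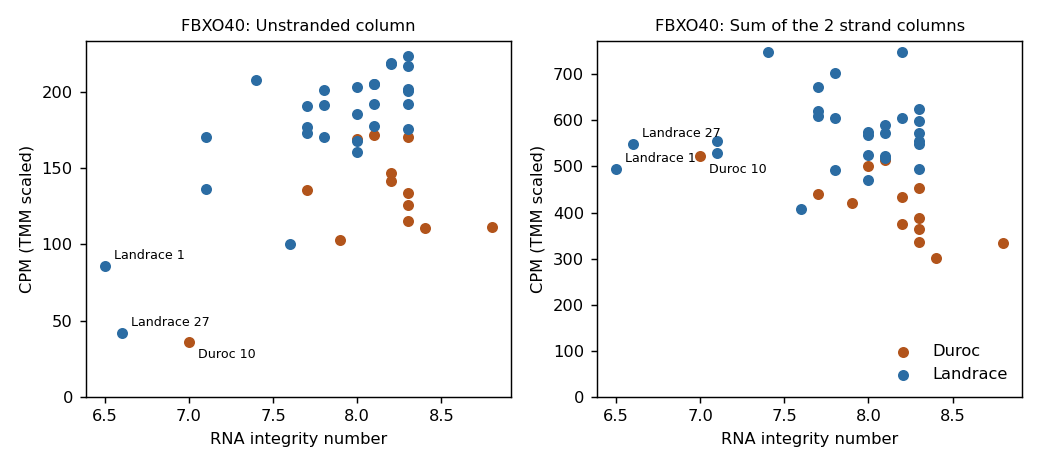
FBXO40 in CPM (y axis, from 0) against RNA integrity number in 41 pigs, by the unstranded counts (left) and by the sum of the counts of both strands (right), colored by breed. The 3 pigs with the lowest RIN are the lowest 3 on the left, at 36.1 to 85.9 CPM, and lie within the range of the remaining pigs on the right, where Duroc 10 is at 522 CPM.

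Slaughter batch and age called none of the 6 in the joint edgeR model. Under other settings batch called 3 with total count scaling, 2 with age left out and 1 by the strand sums, and age called FOXO3 with batch as a number. For batch, with 24.1% of genes called by edgeR, the lowest FDRs were 0.17 for FOXO1 and 0.17 for TRIM63, no member had an unadjusted p under 0.05 in edgeR, and neither DESeq2 nor limma called a member, although TRIM63 and FOXO1 had an unadjusted p of 0.041 and 0.046 in DESeq2. The lowest batch medians among batches 2 to 5 were those of batch 5 for TRIM63 (262 CPM against 309 to 427), FBXO32 (116 against 162 to 265), FOXO1 (32.4 against 36.4 to 43.7), FOXO3 (62.0 against 84.0 to 111) and FBXO30 (73.0 against 80.3 to 86.3), but not for FBXO40. For age, with 1.76% of genes called, FOXO3 fell by 0.044 ± 0.014 on the log2 scale per day with an edgeR FDR of 0.13, and it was the only member with an unadjusted p under 0.05. DESeq2 called this slope (FDR of 0.065) and limma did not.

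**Figure D4:**
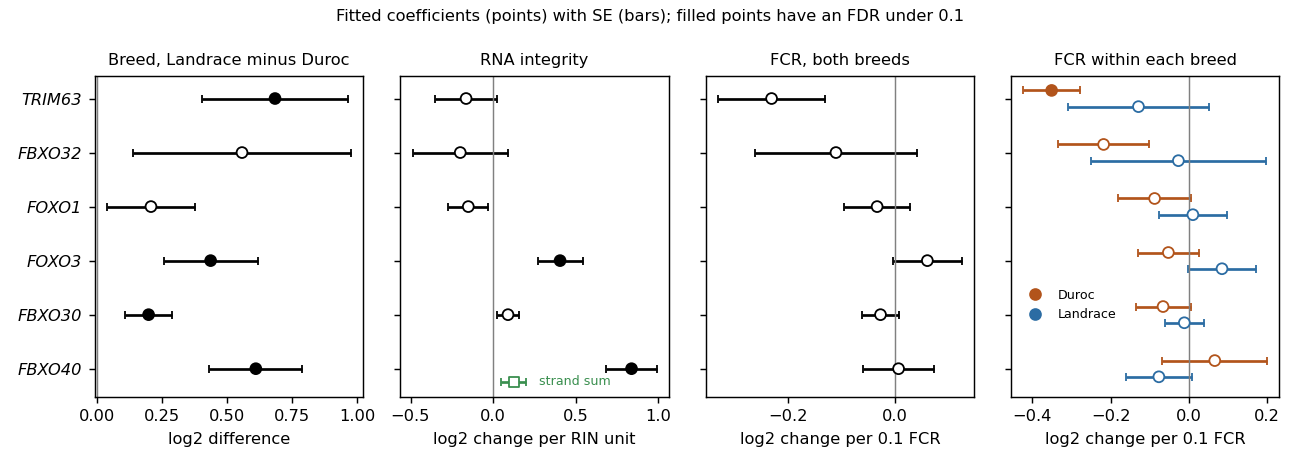
Fitted coefficient of each gene (points) with its standard error (bars), for breed, RIN and FCR in the joint edgeR model and for FCR in each breed alone in DESeq2; filled points have an FDR under 0.1, and the green square is FBXO40 by the strand sums. The x axes are log2 differences, per RIN unit or per 0.1 FCR; 4 genes are filled for breed, 2 for RIN, none for FCR in both breeds and only TRIM63 in Duroc within breeds.

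The genes were next compared with each other over the 41 pigs. TRIM63 and FBXO32 varied together most closely, with r = 0.790 and rho = 0.707 (permutation p = 1e-05 for each, the smallest that the permutations can give, adjusted p = 0.00015 over 15 pairs). Their r was 0.517 in Duroc and 0.872 in Landrace, 0.680, 0.886 and 0.816 within batches 2, 3 and 5, and 0.737 without the pair of pigs farthest from the median of TRIM63. In all, 10 of the 15 pairs had an adjusted p under 0.1, all with a positive r. The ligases TRIM63 and FBXO32 were correlated with FOXO1 (r = 0.499 and 0.502) and with FOXO3 (r = 0.466 and 0.490). These values varied between subsets, with r = 0.169 in Duroc and 0.600 in Landrace for TRIM63 with FOXO1, and no difference between correlations was tested. FBXO40 had lower values, with r between -0.069 and 0.302 to the other 5, of which only that with FOXO3 passed for r (adjusted permutation p = 0.0783), while its rho passed with FOXO3 (0.350) and with FBXO30 (0.431). By the strand sums it had r between -0.025 and 0.224. These values depended on the scaling: with total counts 14 of the 15 pairs passed, and FBXO40 had r = 0.693 with FBXO30, 0.572 with FOXO3, 0.310 with FOXO1 and 0.286 with TRIM63.

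Part of these correlations went with the covariates. On the residuals after RIN, age, breed and batch, 4 pairs had an adjusted p under 0.1. The residual of Duroc 2, alone in batch 1, is 0 by construction, so that pig does not inform these values. The 4 pairs were TRIM63 with FBXO32 (r = 0.772), FBXO32 with FOXO1 (r = 0.516), FBXO32 with FOXO3 (r = 0.504) and TRIM63 with FOXO1 (r = 0.451). For TRIM63 with FOXO1 rho was 0.316 and did not pass (adjusted permutation p = 0.135), whereas it passed for the other pairs. Without the pair of pigs farthest from the median of TRIM63, its r with FOXO1 was 0.333. TRIM63 with FOXO3 came to r = 0.273 (permutation p = 0.0858, adjusted p = 0.162), with r between 0.155 and 0.354 within batches 2, 3 and 5. The residual r of TRIM63 with FBXO32 was 0.399 in Duroc and 0.829 in Landrace, and the difference between the breeds was not tested.

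**Figure D5:**
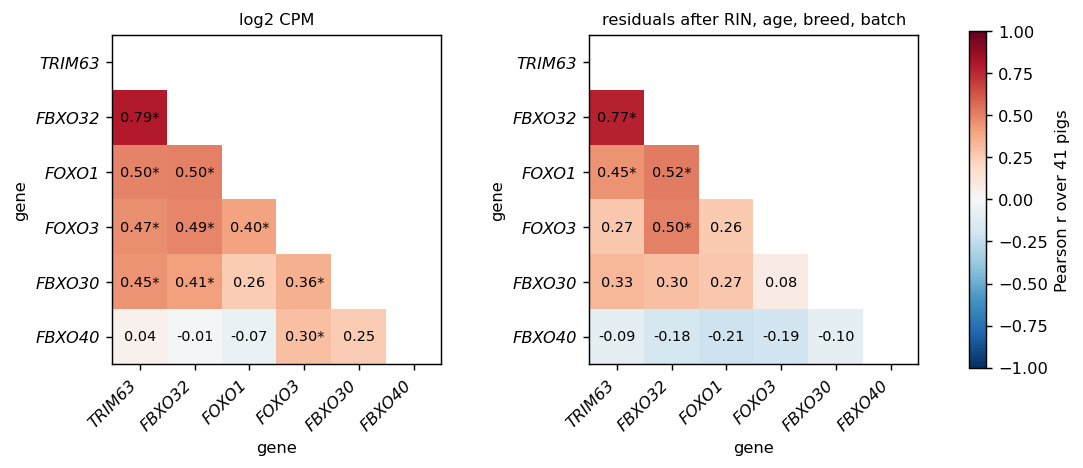
Pearson r between each pair of genes over 41 pigs (color and number), on log2 CPM (left) and on the residuals after RIN, age, breed and batch (right); a star marks an adjusted permutation p under 0.1. TRIM63 with FBXO32 is the highest in both, at 0.79 and 0.77, and 10 pairs are starred on the left and 4 on the right.

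The genes most like each member were found by the Spearman correlation of those residuals, given here as a description. They depended on the adjustment. On values with no covariate removed, TRIM63 was closest to ZFAND5 (0.791) with CEBPB not among its nearest 5, and FOXO1, FBXO30 and FBXO40 had none of their nearest 5 in common with the residuals. On residuals, TRIM63 was closest to CEBPB (rho = 0.840), a transcription factor of stress and glucocorticoid responses, to GADD45G (0.769), of a family induced by cell stress, and to ZFAND5 (0.762), a zinc finger protein that stimulates the proteasome. FBXO32 was closest to TMEM140 (0.833), to KLHL38 (0.808), a kelch protein of muscle, and to HMOX2 (0.802), a heme oxygenase. FOXO3 was closest to MXI1 (0.755), an antagonist of MYC, to SESN1 (0.735), a stress-induced sestrin, and to VEGFD (0.730), a vascular growth factor. FOXO1 had lower values, with FHOD1 (0.705), a formin, CCDC86 (0.705) and PPP1R27 (0.696), and so did FBXO30 with TTLL13 (0.688), SPR (0.664) and UCKL1 (0.647). FBXO40 was closest to the unnamed gene ENSSSCG00000016417 (0.854) and, among others, to NFATC3 (0.819), a calcium-regulated transcription factor, by the unstranded counts.

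The wider pathway was described through 6 lists with 105 genes, of which 97 were matched by symbol and 94 were tested. For FCR none of the 94 was called in the joint edgeR model or in either breed (DESeq2), and 14 had an unadjusted p under 0.05 in the joint model, beside 8.68% of all genes. The lowest p belonged to CEBPB (slope of -0.20 ± 0.060 per 0.1 FCR) and to DDIT4, an inhibitor of mTOR signalling (-0.40 ± 0.13), with an edgeR FDR of 0.53 for each. In Duroc alone it was ZFAND5 (-0.21 ± 0.069, DESeq2 FDR of 0.61).

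For breed 35 of the 94 were called, 29 higher and 6 lower in Landrace, beside 33.1% of all genes, and the median of the 94 was 0.16 log2 units. The share is near that of all genes, and the list counts that follow are given as a description. The split moved with the scaling. By total counts 9 were called higher and 16 lower, with more lower than higher among the other ligases, the FOXO regulators, the FOXO targets and the inducing pathways and 1 of each among the partners, and over all genes the share of higher calls among those called went from 47.0% to 12.9%. Of the 11 partners of the ligases (other MuRF proteins, SCF core subunits, E2 enzymes, the E1 enzyme UBA1 and the ubiquitin-like NEDD8) 6 were called higher and none lower, with TRIM55, the MuRF2 protein, at 0.60 ± 0.13 log2 units and the E2 enzymes UBE2D3 at 0.31 and UBE2E1 at 0.29. Of 20 other ubiquitin ligases and helpers 8 were called higher and 1 lower, which was SMURF1 at -0.64 ± 0.16, and MDM2 stood at 0.35 and WWP1 at 0.44. Of 16 genes on a list of FOXO regulators, which also held the further FOXO factors FOXO4 and FOXO6, 3 were called higher, among them the AMPK subunit PRKAA2 at 0.52 ± 0.11 and FOXO4 itself at 0.31, and 1 was called lower. Of 19 known FOXO targets 5 were called higher and 2 lower, with SESN1 at 0.73 ± 0.17, the autophagy gene MAP1LC3B at 0.38 and the autophagy kinase ULK2 at -0.28. Of 18 genes of the inducing pathways 4 were called higher and 1 lower, with MSTN (myostatin, which restrains muscle growth) at 1.17 ± 0.31, SMAD4 at 0.34 and SMAD1 at -0.52. Of 10 substrates 3 were called higher, MYBPC2, MYL1 and TNNI2 at 0.54, 0.44 and 0.55, and MYOG, a regulator of muscle differentiation, was called lower at -0.46.

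For RIN 49 of the 94 were called, 32 rising and 17 falling, beside 51.8% of all genes, with a median of 0.097 log2 units per RIN unit against -0.010 for all genes. The share is near that of all genes, so nothing is read from it about these genes. By total counts 65 rose and 6 fell, with the partners turning to 6 rising and 1 falling and the substrates to 3 and 3, and over all genes the share of rising calls went from 46.2% to 87.6%. Among the other ligases 9 rose and 2 fell, among them WWP1 at 0.73 and UBR2 at 0.56 log2 units per RIN unit, and on the list of FOXO regulators 8 rose, FOXO4 among them, and none fell, with PIK3CA at 0.48 and the acetyltransferases CREBBP and EP300 at 0.60 and 0.63. Of the partners 2 rose and 5 fell, among the latter RBX1 at -0.38 and NEDD8 at -0.50, and of the substrates 5 fell and none rose, with EIF3F at -0.57, MYOG at -0.61 and TNNI2 at -0.65. Of the FOXO targets 4 rose and 2 fell, and of the inducing pathways 9 rose and 3 fell. For age 3 of the 94 were called, all falling, beside 1.76% of all genes, and for batch 39 were called, beside 24.1%.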

How the data were processed

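Per the labels and the methods of the study, reads were trimmed by Trimmomatic 0.39 and mapped on the Sscrofa11.1 build by STAR 2.7.1a, and the authors deposited its counts of pairs per gene, raw and without a filter. The unstranded counts were used, with 19.1 to 30.1% of pairs on no single gene. No library was a copy of another (over 820 pairs the lowest chi-squared per degree of freedom 36.7 over 5000 genes). The joint model (batch as a factor, breed, age, RIN and FCR) was fitted in R 4.3.3 to 11146 genes with edgeR 4.0.16 and TMM scaling, and each breed alone with DESeq2 1.42.0 on genes with at least 5 counts in every pig, with Benjamini-Hochberg adjustment over all genes. limma 3.58.1 (voom) was an alternative. CPM used TMM scaling and log2 values a prior count of 2. Permutation tests were two-sided, with 100000 resamples in SciPy 1.17.1. Intervals are 95% and include the spread between pigs. Symbols were matched by Ensembl gene identifier, and positions came from RefSeq tables. All 6 genes passed the filters. They and the lists were chosen with earlier results of these data known. All 6 genes, the 3 nearest genes of each, and the 3 genes of a list with the lowest p in a comparison were named, beside a few more called genes chosen after their values were seen, and a few that the rule names are not reported here. The fits were also run on simulated counts with no effect of breed, batch, RIN or age. The planted FCR slopes were larger than any reported here, so that run says little about slopes of this size. Strand sums, RIN slopes within breeds and fits of the joint model without Duroc 6, Duroc 10 or Landrace 19 were added after seeing the data.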

Additional observations from a re-analysis of the deposited data

Results flagged for a closer look

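Each gene was examined for a single pig far from the rest in each breed and batch with 4 to 10 pigs, which gave 18 groups, and 2 held such a pig (Dixon's criterion, which chance meets in about 1 group in 20). FBXO32 in the 4 Duroc pigs of batch 5 was 304 CPM in Duroc 10 against 66.5 to 99.1 CPM in the other 3. That pig had a RIN of 7 and an FCR of 1.85, the lowest FBXO40 of all pigs by the unstranded counts (36.1 CPM), and the highest FOXO1 of the Duroc pigs (48.3 CPM). TRIM63 in the 7 Landrace pigs of batch 3 was 1048 CPM in Landrace 19 against 147 to 523 CPM in the others. That pig had a RIN of 7.8 and an FCR of 2.03, and its FBXO32, at 655 CPM, was the highest of all pigs as well.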

How the results depend on the processing

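The count of called genes among the 6 changed as follows. For breed, 4 became 0 with total count scaling, 2 with age left out, 2 with limma and 1 to 4 without single pigs. FBXO30 alone lost its breed call with no filter on low counts, with batch as a number and without pigs of RIN below 7. For RIN, 2 became 3 with total count scaling and 3 with no filter on low counts. For age, 0 became 1 with DESeq2 and 1 with batch as a number. For batch, 0 became 3 with total count scaling, 2 with age left out and 1 by the strand sums. For FCR in Duroc, 1 became 0 with edgeR and 0 to 1 without single pigs. For RIN in Duroc, 1 became 0 with edgeR and 0 to 2 without single pigs. The pairs with an adjusted p under 0.1 went from 10 to 4 on residuals, 14 with total count scaling, 11 without pigs of RIN below 7 and 9 by the strand sums. The FCR counts in both breeds, in Landrace and by breed stayed at 0 in each alternative run.

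Values that changed sign, none of them called in either fit unless named, were these. With total count scaling the FCR slopes per 0.1 of FOXO1 and FBXO30 were 0.026 and 0.034, the RIN slopes of TRIM63, FBXO32 and FOXO1 were 0.15, 0.13 and 0.17, the FCR by breed term of FOXO1 was -0.0044, and the r of FBXO40 with FBXO32 and FOXO1 was 0.192 and 0.310 (the latter with an adjusted p of 0.0553). With age left out FOXO3 had an FCR slope of -0.0013 and FOXO1 one of -0.060 in Landrace. With batch as a number TRIM63 had a RIN slope of 0.014, FOXO1 an FCR by breed term of -0.023 and FOXO3 an FCR slope of 0.0051 in Duroc. With limma the age slope of FBXO32 was 0.0085. By the strand sums FBXO40 had an FCR slope of -0.049 and of -0.021 in Duroc and an age slope of -0.00033, and r of 0.151, 0.224 and -0.025 with FBXO32, FOXO1 and FOXO3, the last of which had been called. With edgeR the RIN slopes of TRIM63 and FBXO30 in Duroc were 0.039 and 0.050. Without pigs of RIN below 7 FBXO32 had an FCR slope of 0.0010 in Landrace, and r with FBXO40 was 0.049 for FBXO32 and 0.020 for FOXO1. On residuals FBXO40 had r of -0.089, -0.192 and -0.098 with TRIM63, FOXO3 (a pair that had been called) and FBXO30. The cause of these changes was not tested.

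Without single pigs, the FCR slope in Duroc ranged from -0.45 to -0.29 for TRIM63, -0.51 to 0.086 for FBXO32, -0.30 to 0.054 for FOXO1, -0.088 to -0.019 for FOXO3, -0.11 to -0.053 for FBXO30 and -0.10 to 0.50 for FBXO40. The RIN slope in Duroc ranged from -0.090 to 0.40, -1.42 to 0.22, -0.57 to 0.23, 0.40 to 0.61, -0.062 to 0.14 and -0.41 to 1.66 in the same order. In the joint model, the FCR slope ranged from -0.21 to -0.19 for TRIM63, -0.060 to 0.0077 for FBXO32, -0.022 to 0.010 for FOXO1, 0.062 to 0.083 for FOXO3, -0.021 to -0.011 for FBXO30 and -0.057 to 0.013 for FBXO40. The RIN slope of FBXO32 ranged from -0.16 to 0.047, and the FCR by breed term from -0.035 to 0.32 for FBXO32 and -0.060 to 0.040 for FOXO1.

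No paired analysis was possible because the pigs' numbers are only names and link no Duroc pig to a Landrace pig. The Duroc fits have few residual degrees of freedom, and no alternative adds pigs. The other 346 values of single genes and pairs kept their direction and their side of the threshold, 15 passed it only in the alternative and 19 only in the fit reported above.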
